A study of Mus musculus with 15 samples.

Results

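LPS-stimulated bone marrow-derived macrophages (BMDMs) were compared with BMDMs that received PBS. The comparison rests on the 3 LPS and the 3 PBS samples, 6 of the 15 RNA-seq samples of the series, and protein-coding genes were the main set. The macrophages were grown from the bone marrow of wild-type female C57BL/6NTac mice aged 8 to 10 weeks, with 10 ng/mL M-CSF for 10 days according to the labels. The study's methods give fewer days for this culture. The cells were then plated and rested overnight in medium with 1% serum. The stimulation lasted 24 h, with LPS-EK, a lipopolysaccharide preparation, at 1 µg/mL, or with PBS. Marrow-derived cells of 5 mice were mixed before plating, so the 3 samples of each condition are technical, and every p below measures the spread between wells and libraries of that pool, not between mice. BMDMs given 5 µg/mL dsHMGB1, the disulfide form of a nuclear protein that acts as an alarmin, and BMDMs given LPS-EK with 20 ng/mL IFNγ (LPS/IFNγ) served as the nearest other stimulations. For LPS/IFNγ the labels give the LPS dose as 1 µg/mL in one field and 100 ng/mL in another, and the study's methods give 100 ng/mL.

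LPS, a component of the outer membrane of Gram-negative bacteria, is passed by LBP and CD14 to the receptor TLR4 and its partner MD-2, the product of *Ly96*. From the plasma membrane TLR4 signals through TIRAP and MyD88 to NF-κB and MAP kinases, and from endosomes through TRAM and TRIF to IRF3 and interferon β. Interferon β then acts back on the macrophage through its receptor IFNAR, Janus kinases and STAT factors. NF-κB and the interferon pathway also turn on their own inhibitors, and a macrophage exposed for a day changes its metabolism, its surface receptors and its cell cycle.

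The PBS libraries held 65797491, 67149385 and 45497806 counts and the LPS libraries 56128646, 49653652 and 50693107. Of 21649 protein-coding genes in the table, 13025 passed a filter on low counts and were tested. PBS replicate 3 stood apart from its group: over genes, its log2 CPM values correlated with those of the other PBS libraries at 0.942 and 0.937, against 0.99 or more for every other replicate pair of the 5 conditions. Among the 10033 genes that averaged 100 normalized counts or more in PBS, 3393 (33.8%) differed over 2-fold between PBS replicate 3 and the mean of PBS replicates 1 and 2, and 5 differed over 2-fold between PBS replicates 1 and 2. The difference followed transcript length, from a median log2 ratio of 0.985 in the fifth with the shortest exons to -0.857 in the fifth with the longest. Every named gene was also computed without this library, and those that changed call or direction are given with and without it.

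**Figure D1:**
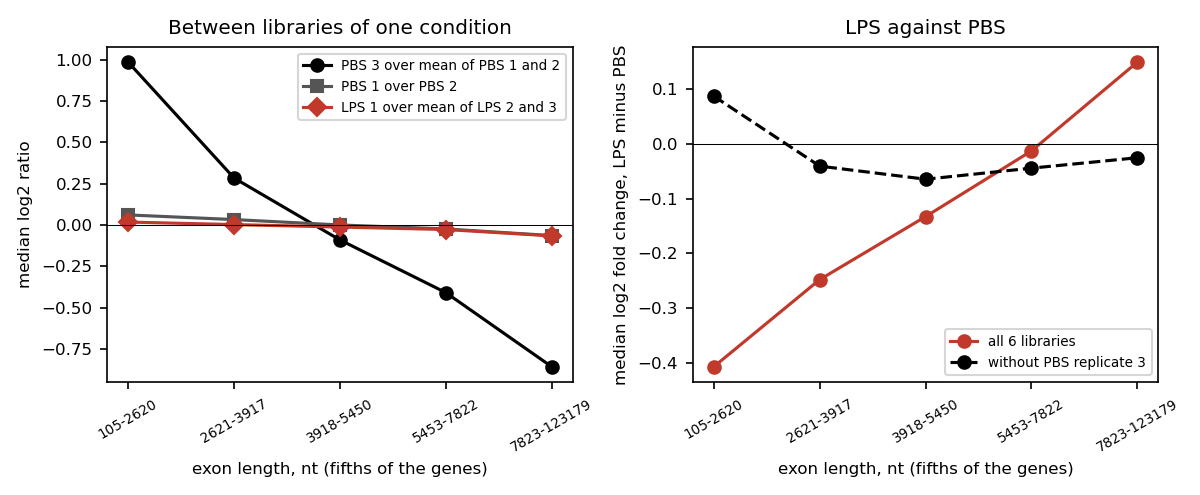
Left, the median log2 ratio between libraries of one condition, and right, the median log2 fold change of LPS against PBS, in 5 groups of genes ordered by exon length in nucleotides. PBS replicate 3 runs from 0.985 to -0.857 against the other PBS libraries, and without it the medians of LPS against PBS stay between -0.0647 and 0.0868.

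A gene is called here when its Benjamini-Hochberg adjusted p over all tested genes is under 0.05 in edgeR's quasi-likelihood test. After 24 h of LPS, 3913 genes were called higher (30% of those tested) and 4618 were called lower (35.5%). Without PBS replicate 3 the calls were 4829 and 5211. Fold changes beyond the study's cut-off of 2 on the log2 scale were reached upwards by 1409 genes (10.8%) and downwards by 1147 genes (8.81%), counted without a test. In 4204 genes (32.3%) every LPS library lay above every PBS library, and in 4214 (32.4%) every one lay below. The genes above the upper cut-off held between 34.9% and 35.4% of the protein-coding counts of the LPS libraries and between 2.97% and 4.51% of those of the PBS libraries. The scaling therefore matters for small changes: the median log2 fold change of all tested genes was -0.129 with DESeq2 size factors and -0.763 when counts were divided by library totals only, and with the latter 2275 genes were called higher and 7280 lower. Named genes whose direction this scaling turns, and that are called with either scaling, have its value beside them. Genes called with neither scaling can turn too and may lack that value. Further genes not called here were called lower with library totals. A fall in a bulk sample cannot be told apart from a smaller share of cells with the transcript.

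**Figure D2:**
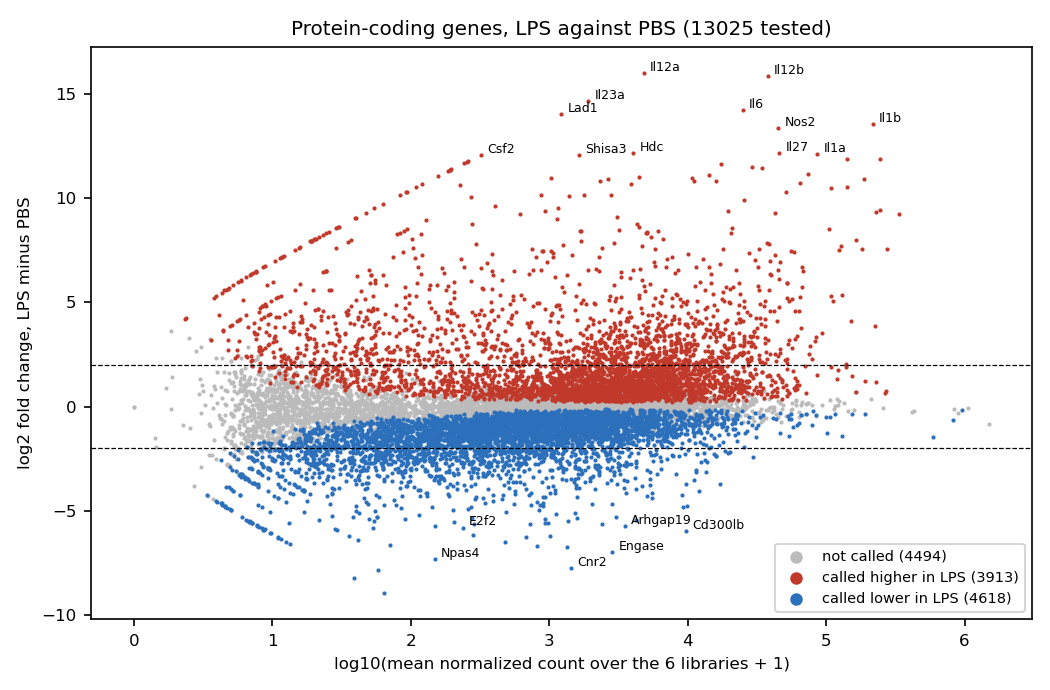
Log2 fold change of LPS against PBS for the 13025 protein-coding genes tested, against the log10 of the mean normalized count over the 6 libraries plus 1; dashed lines mark the cut-off of 2 in either direction. The 12 largest rises and 6 of the 12 largest falls are named, and the called genes number 3913 higher and 4618 lower.

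Genes were ranked by fold change among those called, not overlapping between the groups and averaging 100 or more normalized counts, and the 12 largest rises were led by cytokine genes. *Il12b* encodes the p40 subunit shared by IL-12 and IL-23, at chr11:44400063-44414033 on the plus strand of GRCm38. It had 3.28, 0 and 0 normalized counts in the PBS libraries and 72395, 78191 and 76353 in the LPS libraries, a ratio of 58700-fold, with a 95% counting interval of 25200 to 181000. *Il12a*, the p35 subunit of IL-12, and *Il23a*, the p19 subunit of IL-23, had no count in any PBS library. *Il12a* reached 9631 ± 497 normalized counts in LPS (mean ± SD, n = 3), at least 12500-fold higher than the level that 3 counts over the PBS group would give, and *Il23a* reached 3822 ± 291, at least 4960-fold higher. *Il6* (chr5:30013114-30019981, plus strand), which drives the hepatic acute-phase response, had 1.31, 0 and 9.95 normalized counts in the PBS libraries and 52289, 49325 and 47955 in the LPS libraries. *Il1b* (chr2:129364570-129371139, minus strand), the precursor of IL-1β, had 33.5, 42.8 and 32.3 normalized counts in the PBS libraries and 437110, 420980 and 442450 in the LPS libraries (log2 fold change 13.53 ± 0.18, adjusted p = 1.72e-13, where ± is the standard error). *Il1a* rose by 12.12 ± 0.41 and *Il27*, a subunit of IL-27, by 12.16 ± 0.30 on the same scale. *Nos2*, the inducible nitric oxide synthase, at chr11:78920787-78960254 on the plus strand, had 9.85, 5.75 and 12.4 normalized counts in the PBS libraries and 84753, 90454 and 95401 in the LPS libraries (log2 fold change 13.33 ± 0.26, adjusted p = 1.45e-10). *Csf2*, which encodes GM-CSF, had no count in PBS and 638 ± 65.3 in LPS, at least 827-fold higher. The list was completed by *Hdc*, the histidine decarboxylase that makes histamine (4500-fold, with a 95% counting interval of 2180 to 11200), *Lad1*, a basement membrane protein first known from skin (no count in PBS, at least 3160-fold higher), and *Shisa3* (4250-fold, with a 95% counting interval of 1450 to 20600). The LPS libraries lay close together in each of these genes, and the PBS libraries held few counts or none.

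Among the largest falls, *Cnr2*, the cannabinoid receptor CB2 (chr4:135895394-135920207, plus strand), had 3354, 3226 and 1979 normalized counts in the PBS libraries and 10.2, 13.2 and 17.2 in the LPS libraries (log2 fold change -7.73 ± 0.35, adjusted p = 2.01e-10). *Npas4*, an activity-dependent transcription factor, had 334, 228 and 317 normalized counts in the PBS libraries and 5.08, 0 and 0 in the LPS libraries. *Engase*, an endoglycosidase of the cytosol, fell from a mean of 5682 to 44.3 normalized counts (log2 fold change -7.00 ± 0.29). *Zfp395* fell by 6.72, *Galnt9*, a transferase that starts O-glycans, by 6.25 and *Fam214a* by 6.20 on the log2 scale. *Bmf*, a BH3-only inducer of apoptosis, fell by 6.67, *Npas2*, a partner of BMAL1 in the circadian clock, by 6.14, *E2f2* by 5.80 and *Arhgap19*, a GTPase-activating protein, by 5.72. *Cd300lb*, an activating receptor of myeloid cells, fell from a mean of 19141 to 302 (log2 fold change -5.98 ± 0.28, adjusted p = 3.14e-09). *Lpar5*, a receptor for lysophosphatidic acid, had 1335, 1356 and 126 normalized counts in the PBS libraries and 12.7, 14.6 and 4.31 in the LPS libraries. PBS replicate 3 lay far below the other PBS libraries there. Absence of overlap was part of the ranking rule for all 24 genes and is no finding.

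**Figure D3:**
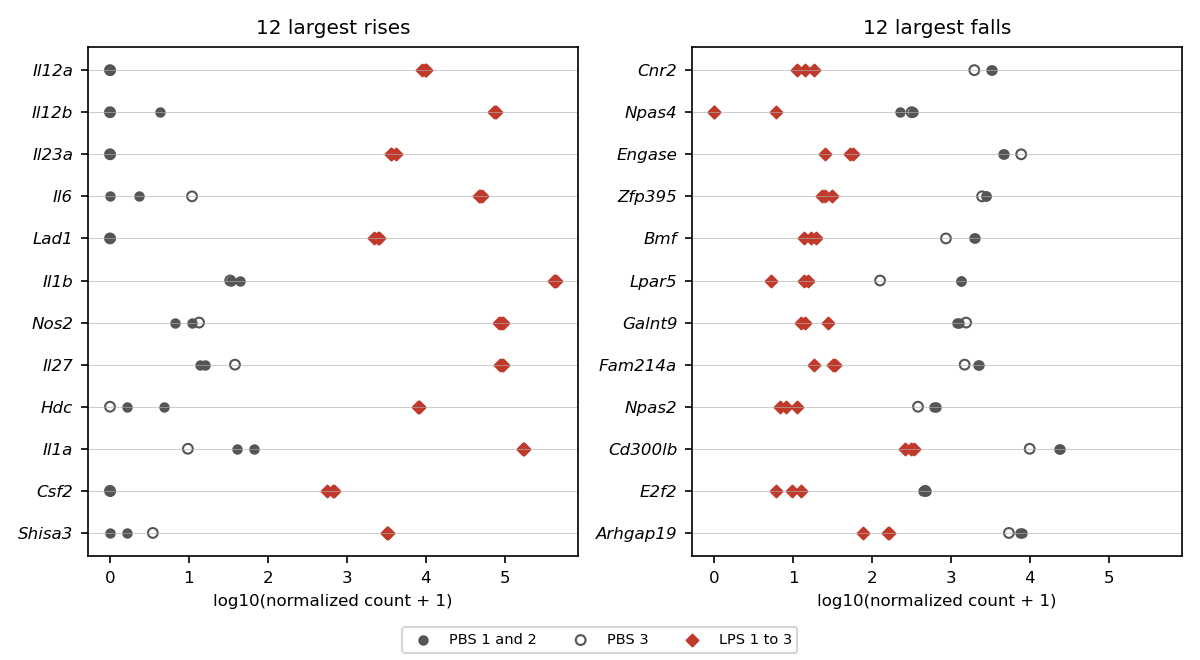
Normalized counts, as log10 of the count plus 1, in each PBS and LPS library for the 12 genes with the largest rises (left) and the 12 with the largest falls (right). The genes were ranked among those whose groups do not overlap, and PBS replicate 3 (open circle) lies near the others except in genes such as *Lpar5* and *Il1a*.

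Levels per exon length, as TPM computed from the counts, showed which messages were most abundant. In PBS the highest were *Lyz2* (45052 ± 7569.7), the lysozyme of myeloid cells, *Fth1* (32299 ± 16953), the heavy chain of ferritin, *Apoe* (28648 ± 6777), *Psap* (25362 ± 6391), the precursor of the saposins, and *Ctss* (22401 ± 1229), cathepsin S. In LPS the highest were *Ccl3* (31490 ± 434), a chemokine that attracts monocytes and T cells, *Lyz2* (26832 ± 547), *Apoe* (16498 ± 425), *Ccl4* (16327 ± 425) and *Fth1* (13767 ± 294). A pair of chemokines thus stood among the 5 most abundant messages after LPS, where *Ccl3* had been at 251 ± 6.96 in PBS. The PBS means include PBS replicate 3, in which short transcripts stood higher and *Fth1* alone took 6.77% of the counts. TPM is a share within a library and falls where other genes take more of the total. *Lyz2*, *Apoe* and *Fth1* were not called in the test, as given below.

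The 42 gene lists described next held 886 tested genes, of which 443 were called higher and 244 lower. The list counts read against the 30% and 35.5% of all tested genes. Members of the list of interferon-stimulated genes, of guanylate-binding proteins, of NF-κB and IκB proteins and of cytokines were nearly all called higher, and those of the lysosomal, S-phase and mitosis lists were mostly called lower.

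**Figure D4:**
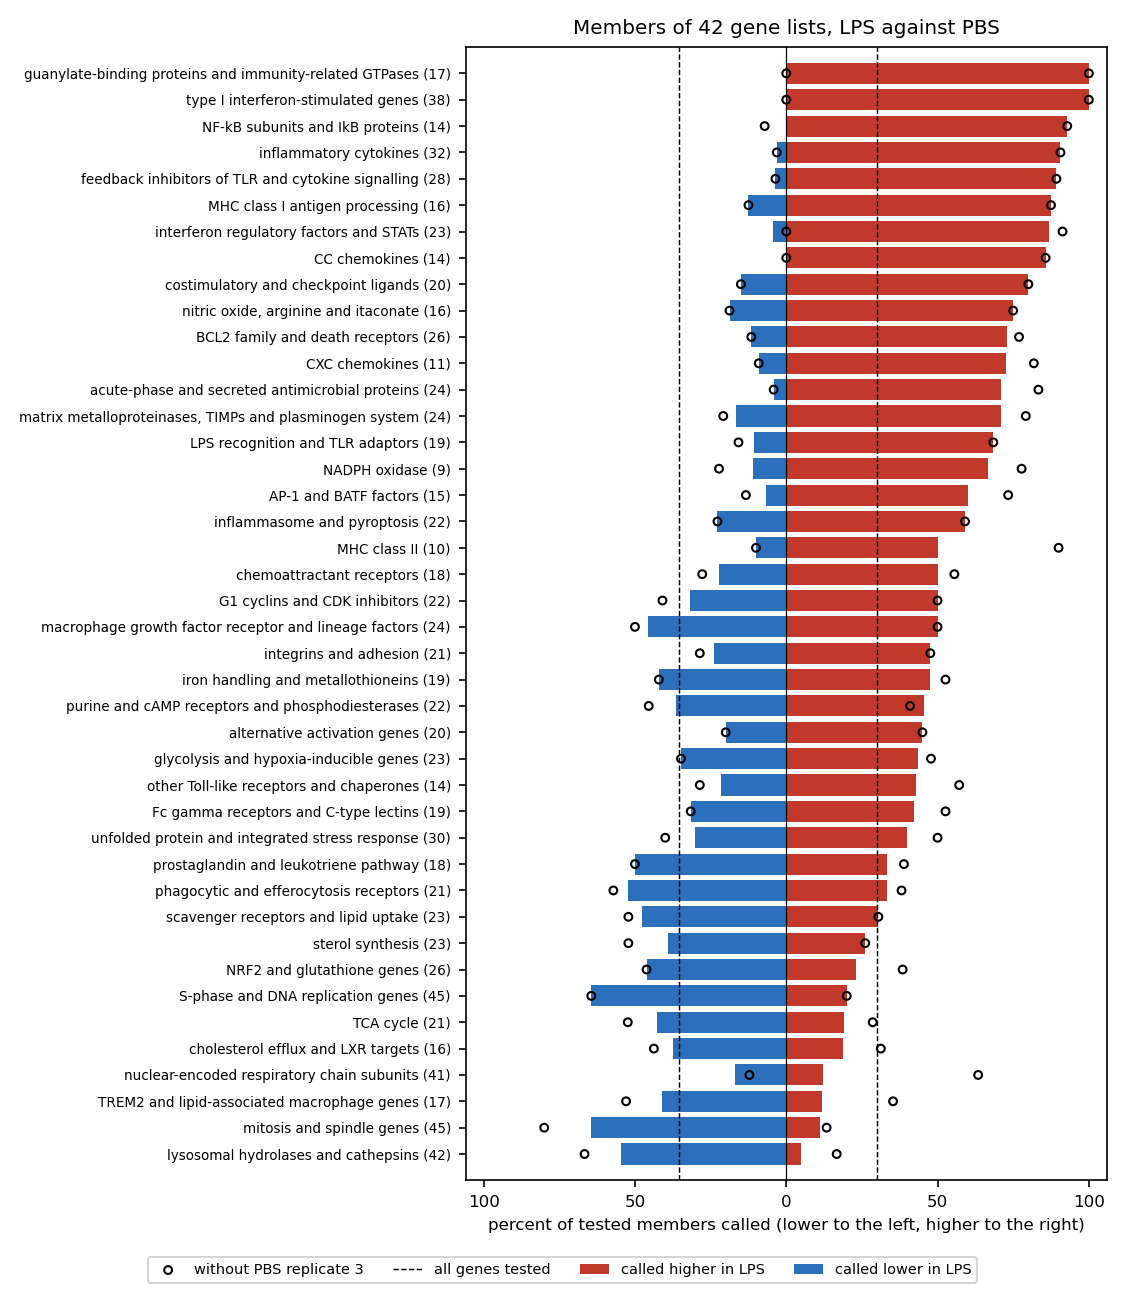
Percent of the tested members of each of 42 gene lists (number tested in parentheses) called higher (right) or lower (left) in LPS against PBS. Dashed lines mark the 30% and 35.5% of all genes tested, and open circles give the same without PBS replicate 3, which lie far from the bars for the respiratory chain and MHC class II.

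The receptor complex for LPS was itself changed. *Cd14* had 9399, 8633 and 16826 normalized counts in the PBS libraries and 93677, 91381 and 97527 in the LPS libraries (log2 fold change 3.02 ± 0.21, adjusted p = 1.47e-08) and *Ly96* rose from a mean of 687 to 2175 (log2 fold change 1.67 ± 0.15, adjusted p = 2.60e-07). *Tlr4* itself had 2895 ± 1204 in PBS and 3188 ± 149.6 in LPS (log2 fold change 0.14 ± 0.27, adjusted p = 0.771), or -0.56 on library totals. Of the adaptors, *Myd88* rose by 2.40 ± 0.077 and *Ticam1*, which encodes TRIF, by 0.63 ± 0.085, or -0.021 on library totals. The TRAM gene *Ticam2* was not called (-0.17 ± 0.10) and was called lower without PBS replicate 3 (-0.26 with an adjusted p of 0.00187). Downstream, *Irak2* (2.57 ± 0.15) and the inhibitory *Irak3* (1.29 ± 0.18) rose and *Irak4* (-0.46 ± 0.097) fell. *Irak1* had 5612, 5530.2 and 3232 normalized counts in the PBS libraries and 3624, 3435 and 3267 in the LPS libraries, which overlap between the groups. It was called lower (log2 fold change -0.48 ± 0.18, adjusted p = 0.0208), but not without PBS replicate 1 (-0.35, adjusted p = 0.0939), PBS replicate 2 (-0.36, adjusted p = 0.0877), LPS replicate 2 (-0.47, adjusted p = 0.0538) or LPS replicate 3 (-0.44, adjusted p = 0.0676). *Traf1*, which binds TNF receptor family members, rose most, from a mean of 195 to 25677 (log2 fold change 7.06 ± 0.097, adjusted p = 6.63e-14), and *Casp4*, the murine caspase-11 that senses LPS in the cytosol, rose by 3.94 ± 0.16. In all 13 of 19 tested members rose and 2 fell, or 9 and 4 on library totals. Other Toll-like receptors moved both ways: *Tlr2* (4.25 ± 0.055), *Tlr3* (4.10 ± 0.20) and *Tlr1* (3.33 ± 0.24) rose and *Tlr13*, a sensor of bacterial ribosomal RNA, fell from 16247 to 3824 (-2.09 ± 0.18). *Unc93b1*, which carries the endosomal receptors, was not called (0.25 ± 0.12, 0.41 with an adjusted p of 3.49e-05 without PBS replicate 3 and -0.36 on library totals).

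NF-κB genes rose together. Of 14 tested members 13 rose, with a median log2 fold change of 3.43. All 5 subunits rose, *Rela* by 2.36 ± 0.052, *Relb* by 2.79 ± 0.16, *Rel* by 3.46 ± 0.25, *Nfkb1* by 4.12 ± 0.21 and *Nfkb2* by 4.79 ± 0.071. The inhibitor *Nfkbia*, IκBα, had 2278, 2296 and 3616 normalized counts in the PBS libraries and 99211, 101410 and 105180 in the LPS libraries (log2 fold change 5.22 ± 0.16, adjusted p = 1.20e-11), and *Nfkbie*, IκBε, rose by 5.92 ± 0.084. *Nfkbiz*, an IκB of the nucleus that is needed for late targets, rose most, from 334 to 54821 (log2 fold change 7.35 ± 0.21, adjusted p = 6.61e-11). *Ikbkg*, the regulatory subunit of the IκB kinase, was not called (-0.13 ± 0.16) and was called lower without PBS replicate 3 (-0.32 with an adjusted p of 4.39e-04). The AP-1 and BATF factors were mixed, 9 of 15 higher and 1 lower: *Batf2* (5.51 ± 0.17), *Batf* (5.09 ± 0.22) and *Junb* (2.51 ± 0.22) rose and *Fos* fell (-1.43 ± 0.24). *Jund* passed the test only without PBS replicate 3 (0.48 ± 0.43 with it and 1.53 with an adjusted p of 5.06e-09 without it).

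The promoters of some of these genes carry the sequences that NF-κB and the interferon-activated factors are known to bind. RefSeq promoters (GRCm38.p6) were matched to 10248 of the 13025 tested genes, and the 250 bases before the start were searched on both strands for GGGANTTTC or GGGANNTCC (NF-κB) and for GAAANNGAA (interferon response). The interferon response motif was in 6.55% of all matched promoters, in 12% of those called higher with a log2 fold change above 2 and in 5.3% of those called lower with a log2 fold change below -2. Among the interferon-stimulated genes it was in 15 of 30 promoters, and among the guanylate-binding proteins and immunity-related GTPases in 10 of 10. The NF-κB motif was in 5.58% of all, in 8.95% and in 4.7%. The AP-1 motif TGANTCA was in 4.39% of all, in 8.57% and in 4.94%. The CRE motif TGACGTCA stood at 2.63% of all promoters, 1.79% and 1.93%, and the E2F motifs TTTGGCGC or TTTCCCGC at 2.55%, 1.98% and 3.01%. By list, the NF-κB motif was in 3 of 10 promoters of NF-κB and IκB proteins and in 3 of 23 of cytokines. It was also in 7 of 37 of mitosis genes, which mostly fell, and in 0 of 33 of S-phase genes. The promoters of the induced *Tnf*, *Il1b*, *Il1a*, *Il12a*, *Il12b*, *Ptgs2* and *Socs3* held no NF-κB match in this window. These shares are descriptions without a test, and a match is not a binding site. The promoters of 5 induced genes, chosen after their values were seen because they hold such motifs, are printed from 250 bases before the start to the last base before it, 5′ to 3′ on the gene's strand, with NF-κB and interferon response motifs in capitals. They are *Il6* (chr5:30012864-30013113, plus), with the NF-κB motif 44 bases before the start, *Nfkbia* (chr12:55492648-55492897, minus), with NF-κB motifs at 113 and 28 and an interferon response motif at 53, *Cxcl10* (chr5:92348890-92349139, minus), with overlapping NF-κB matches at 103 and 102 and an interferon response motif at 213, *Ifit1* (chr19:34640639-34640888, plus), with interferon response motifs at 109, 103 and 84, and *Isg15* (chr4:156200819-156201068, minus), with overlapping ones at 78, 72 and 66.
Il6: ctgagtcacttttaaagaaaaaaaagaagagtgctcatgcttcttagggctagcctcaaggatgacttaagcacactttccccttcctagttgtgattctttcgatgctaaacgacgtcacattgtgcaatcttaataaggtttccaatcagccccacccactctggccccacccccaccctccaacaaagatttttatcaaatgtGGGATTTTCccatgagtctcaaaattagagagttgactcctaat
Nfkbia: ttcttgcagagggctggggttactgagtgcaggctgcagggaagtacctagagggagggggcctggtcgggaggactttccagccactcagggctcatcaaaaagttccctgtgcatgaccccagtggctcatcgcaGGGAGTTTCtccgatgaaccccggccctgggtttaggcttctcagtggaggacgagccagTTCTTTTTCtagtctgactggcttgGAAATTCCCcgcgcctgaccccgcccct
Cxcl10: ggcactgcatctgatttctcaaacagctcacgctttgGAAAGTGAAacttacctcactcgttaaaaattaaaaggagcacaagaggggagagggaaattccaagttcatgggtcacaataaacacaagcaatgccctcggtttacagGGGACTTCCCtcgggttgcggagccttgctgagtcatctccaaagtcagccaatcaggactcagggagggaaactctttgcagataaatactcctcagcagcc
Ifit1: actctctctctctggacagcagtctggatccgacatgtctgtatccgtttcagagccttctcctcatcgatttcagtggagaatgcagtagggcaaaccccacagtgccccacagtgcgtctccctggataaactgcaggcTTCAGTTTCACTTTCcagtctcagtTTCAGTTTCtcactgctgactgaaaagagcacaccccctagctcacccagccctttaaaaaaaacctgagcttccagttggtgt
Isg15: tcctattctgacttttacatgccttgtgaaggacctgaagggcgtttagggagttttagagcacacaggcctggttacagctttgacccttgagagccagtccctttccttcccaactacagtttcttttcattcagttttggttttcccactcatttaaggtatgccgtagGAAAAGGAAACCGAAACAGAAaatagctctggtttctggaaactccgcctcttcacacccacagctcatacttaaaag

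The cytokine genes took 0.0122, 0.0121 and 0.0106% of the protein-coding counts in the PBS libraries and 2.25, 2.23 and 2.23% in the LPS libraries. Of 32 tested, 29 rose, by a median log2 fold change over the tested genes of 7.87, or 6.94 with those absent from PBS at their lower bound. The highest in LPS was *Tnf*, with 669, 631 and 891 normalized counts in the PBS libraries and 470490, 504600 and 500190 in the LPS libraries (log2 fold change 9.40 ± 0.12, adjusted p = 6.22e-14). *Ifnb1*, interferon β, rose from 6 counts in all PBS libraries to 1729 ± 206 normalized counts in LPS, 1110-fold, with a 95% counting interval of 512 to 3040. *Il10*, an anti-inflammatory cytokine, rose from 28.1 to 2155 (log2 fold change 6.22 ± 0.30, adjusted p = 2.86e-09) and *Il1rn*, the IL-1 receptor antagonist, from 969.9 to 78359 (log2 fold change 6.33 ± 0.16, adjusted p = 1.64e-11). *Edn1*, endothelin, rose by 11.08 ± 0.25, *Tnfsf15* by 9.90 ± 0.44 and *Il15* by 5.71 ± 0.19. *Il16* was the one member that fell (-3.09 ± 0.31), and *Il7* (0.17 ± 0.27) and *Ltb* (-0.24 ± 0.44) were not called. Of the 37 genes of the list 5 were not tested.

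**Figure D5:**
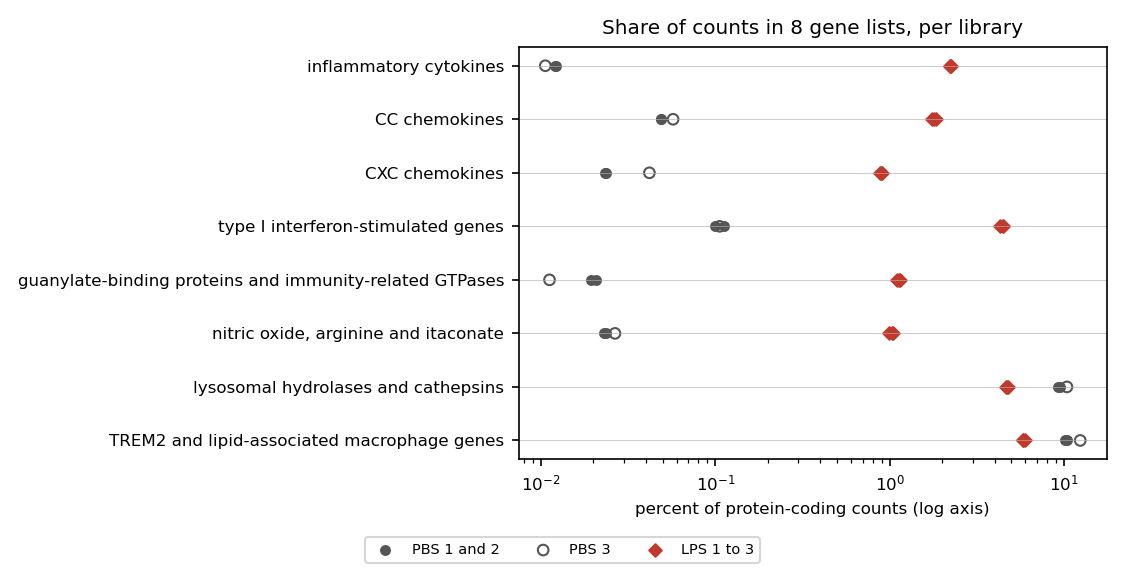
Percent of protein-coding counts, on a log axis, in 8 gene lists for each PBS and LPS library. Cytokines rise from about 0.012% in PBS to about 2.2% in LPS, interferon-stimulated genes from about 0.1% to over 4%, and the lysosomal and TREM2 lists stand lower in every LPS library.

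CC chemokines went from 0.0489, 0.0488 and 0.0573% of protein-coding counts in PBS to 1.85, 1.75 and 1.80% in LPS, and CXC chemokines from 0.0236, 0.0234 and 0.0419% to 0.907, 0.889 and 0.883%. *Ccl3* had 2408, 2312 and 4221 normalized counts in the PBS libraries and 557920, 545720 and 550570 in the LPS libraries (log2 fold change 7.53 ± 0.20, adjusted p = 1.26e-11). *Ccl22*, a ligand of CCR4, rose most among CC chemokines (9.86 to 21405, log2 fold change 10.96 ± 0.24), and *Ccl5* rose by 10.53 ± 0.44. *Ccl6* was expressed in both groups and not called (10486 ± 2031 in PBS and 9584 ± 594 in LPS). The neutrophil attractants *Cxcl1* and *Cxcl2* rose by 11.62 ± 0.26 and 10.71 ± 0.13. *Cxcl10*, a ligand of CXCR3, had 129, 339.9 and 104 normalized counts in the PBS libraries and 374790, 375040 and 374570 in the LPS libraries (log2 fold change 10.93 ± 0.35, adjusted p = 6.58e-10). *Cxcl14* fell (-0.81 ± 0.20), and *Pf4* was called only without PBS replicate 3 (0.029 ± 0.51 with it, 1.38 with an adjusted p of 9.85e-07 without it). Of the receptors for chemoattractants 9 of 18 rose and 4 fell, or 6 and 6 on library totals. The formyl peptide receptor genes *Fpr2* (10.15 ± 0.46, or 10.83 without PBS replicate 3) and *Fpr1* (787-fold, with a 95% counting interval of 308 to 2890) rose. *Cxcr4*, which retains cells in bone marrow, had 17878, 16897 and 18848 normalized counts in the PBS libraries and 701, 611 and 607 in the LPS libraries (log2 fold change -4.80 ± 0.097, adjusted p = 6.44e-13), and *Cx3cr1* (-4.31 ± 0.41) and *Ccr2* (-3.38 ± 0.33) fell with it. *C3ar1* was not called (-0.19 ± 0.14), and at -0.36 it was called lower without PBS replicate 3.

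Of the interferon-stimulated genes, all 38 tested members rose, with and without PBS replicate 3 and with library totals, by a median of 5.73, and their share of protein-coding counts went from 0.0996, 0.112 and 0.106% in PBS to 4.46, 4.47 and 4.27% in LPS. *Rsad2*, viperin, had 914, 1480.5 and 957 normalized counts in the PBS libraries and 679990, 686300 and 641950 in the LPS libraries (log2 fold change 9.23 ± 0.18, adjusted p = 2.99e-12). *Oasl1*, which limits the translation of *Irf7*, rose most (60.4 to 38772, log2 fold change 9.35 ± 0.15), and *Cmpk2* (9.31 ± 0.29), *Mx1* (9.26 ± 0.29), *Ifit1* (8.50 ± 0.16) and *Isg15* (7.47 ± 0.40, or 8.35 without PBS replicate 3) rose beside it. The smallest rise was that of *Bst2*, tetherin (1.98 ± 0.41, or 2.96 without PBS replicate 3). All 17 guanylate-binding proteins and immunity-related GTPases, which attack the vacuoles of intracellular pathogens, also rose, by a median of 7.24. *Gbp5* had 133, 248 and 68.4 normalized counts in the PBS libraries and 213110, 223560 and 219290 in the LPS libraries (log2 fold change 10.50 ± 0.31, adjusted p = 2.06e-10) and *Gbp2* was highest, at 253590 ± 5629 in LPS. Several members of these families are near-identical copies (*Ifit3* and *Ifit3b*, *Tgtp1* and *Tgtp2*), and the split of their counts is uncertain. Among the factors of the pathway 20 of 23 rose. *Irf7* rose from 615 to 63745 (log2 fold change 6.70 ± 0.21, adjusted p = 3.90e-11), *Irf1* by 4.56 ± 0.14, *Stat2* by 4.51 ± 0.12 and *Jak2* by 4.91 ± 0.16. *Irf3*, the factor downstream of TRIF, had 2446 ± 1096 in PBS and 1774 ± 80.4 in LPS and was called lower (log2 fold change -0.46 ± 0.23, adjusted p = 0.0492). That call was lost without PBS replicate 3 (-0.043 with an adjusted p of 0.243), without LPS replicate 1, 2 or 3 (adjusted p = 0.119, 0.0789 and 0.102), with DESeq2's test (adjusted p = 0.0646) and with the replicate block (adjusted p = 0.072). *Ifngr2* was not called (0.12 ± 0.062, or -0.51 on library totals).

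Feedback inhibitors rose with the pathways that they restrain, 25 of 28 tested, or 18 on library totals. *Socs3*, an inhibitor of JAKs at the IL-6 receptor, had 94.6, 76.7 and 72.2 normalized counts in the PBS libraries and 98634, 102080 and 107330 in the LPS libraries (log2 fold change 10.30 ± 0.21, adjusted p = 5.38e-12). *Cish*, the SOCS protein of the STAT5 pathway, rose most (4.50 to 7843, log2 fold change 10.66 ± 0.37), *Socs1* rose by 7.57 ± 0.21 and *Tnfaip3*, the deubiquitinase A20, by 5.93 ± 0.22. The RNase gene *Zc3h12a* rose by 3.87 ± 0.10. *Zfp36*, tristetraprolin, which destabilizes cytokine messages, rose by 2.93 ± 0.059, and its relative *Zfp36l1* was the member that fell (2414 ± 446 in PBS and 475 ± 19.1 in LPS, log2 fold change -2.35 ± 0.19). *Atf3* was highest on the mean and rose by 0.51 ± 0.054, or by -0.14 on library totals, where the sign turned. The decoy receptor gene *Il1r2* (-0.33 ± 0.64) was not called.

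Genes for presenting antigen on MHC class I rose, 14 of 16, or 11 on library totals. *Tap1*, the peptide transporter, rose from 2088 to 70482 (log2 fold change 5.08 ± 0.11, adjusted p = 9.02e-13), and its regulator *Nlrc5* by 4.86 ± 0.18. *H2-D1* was highest, with 200250 ± 44955 in PBS and 337780 ± 6223 in LPS (log2 fold change 0.75 ± 0.13, or 0.15 on library totals), and the chaperone genes *Pdia3* (-0.68 ± 0.16) and *Calr* (-0.51 ± 0.13) fell. MHC class II was less clear: 5 of 10 rose, 9 without PBS replicate 3 and 3 on library totals. *Cd74*, the invariant chain, had 134220, 124120 and 295560 normalized counts in the PBS libraries and 229330, 237760 and 250510 in the LPS libraries, not called with the third PBS library (0.37 ± 0.26) and called without it (0.88 with an adjusted p of 2.26e-08). *Ciita*, the coactivator of the class II genes, rose by 1.46 ± 0.24 and *H2-DMb2* fell (-1.57 ± 0.44). Of the costimulatory and checkpoint genes 16 of 20 rose. *Cd40* had 46.0, 40.3 and 112 normalized counts in the PBS libraries and 145530, 145580 and 149720 in the LPS libraries (log2 fold change 11.16 ± 0.31, adjusted p = 5.92e-11), *Icam1* was highest in LPS with 364270 ± 18574, and *Cd80* and *Cd274* (PD-L1) rose by 3.87 ± 0.13 and 4.58 ± 0.16 and *Cd86* from a mean of 341 to 5516. *Slamf1* had no count in PBS and 505 ± 27.6 in LPS, at least 655-fold higher. *Vsir*, the checkpoint protein VISTA, fell from 40457 to 10414 (log2 fold change -1.96 ± 0.06, adjusted p = 1.73e-10).

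Beside *Nos2*, genes that make or use arginine and itaconate rose. *Acod1*, which makes itaconate from cis-aconitate, had 108, 186 and 103 normalized counts in the PBS libraries and 476830, 500790 and 502140 in the LPS libraries (log2 fold change 11.85 ± 0.22, adjusted p = 5.50e-12). *Gch1*, needed for the cofactor of NOS2, rose by 4.02 ± 0.13, the arginine transporter gene *Slc7a2* by 6.52 ± 0.20 and *Ass1*, which recycles citrulline, by 2.85 ± 0.087. *Arg1*, the liver arginase, stayed low and was not called (8.23 ± 7.64 in PBS and 17.0 ± 10.7 in LPS), while *Arg2* rose by 3.55 ± 0.29 and *Spr*, another enzyme of cofactor synthesis, fell (-1.75 ± 0.36, or -0.93 without PBS replicate 3).

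Glycolysis genes were split, 10 of 23 higher and 8 lower, and 8 and 11 on library totals. The control enzymes *Pfkfb3* (from 1405 to 22488 normalized counts), *Pfkp* (3.25 ± 0.085) and *Hk2* (2.41 ± 0.14) rose, as did *Hif1a* (2.35 ± 0.32). *Tpi1* (-1.12 ± 0.23) and *Pkm*, the pyruvate kinase (67060 ± 25403 in PBS and 44213 ± 1409.5 in LPS, log2 fold change -0.60 ± 0.20), fell and *Ldha* was not called (0.11 ± 0.19, 0.41 with an adjusted p of 4.67e-04 without PBS replicate 3 and -0.48 on library totals). In the list of TCA cycle genes *Idh1* fell from 21460 to 3349 (log2 fold change -2.68 ± 0.088, adjusted p = 1.42e-11). It encodes the cytosolic isocitrate dehydrogenase and not the enzyme of the mitochondrial cycle itself. *Fh1* fell by 0.87, *Sdhb* fell (-0.98 ± 0.34, or -0.22 without PBS replicate 3), *Sdha* was not called (0.011 ± 0.056, or -0.62 on library totals), and *Dld* (1.21 ± 0.062) and *Cs*, citrate synthase (1.03 ± 0.078), rose.

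The nuclear-encoded subunits of the respiratory chain depended on PBS replicate 3. With all libraries 5 of 41 rose and 7 fell (median -0.36), without PBS replicate 3 26 rose and 5 fell (median 0.45), and on library totals 0 rose and 29 fell. *Cox4i1*, for example, had 12563, 11757 and 49519 normalized counts in the PBS libraries and 16812, 16488 and 17782 in the LPS libraries. No direction is given for this list. *Ndufb10* fell with and without that library (-1.38 ± 0.44 and -0.27), but was not called when only the LPS and PBS libraries were fitted (-1.36, adjusted p = 0.101). *Cyc1* rose with and without that library (0.86 ± 0.11 and 0.73, or 0.20 on library totals).

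Prostaglandin genes centred on *Ptgs2*, the inducible cyclooxygenase, with 104, 85.0 and 38.6 normalized counts in the PBS libraries and 269370, 297270 and 288400 in the LPS libraries (log2 fold change 11.85 ± 0.26, adjusted p = 2.42e-11). The phospholipase gene *Pla2g4a* (3.43 ± 0.28) and *Ptges*, the synthase of prostaglandin E2 (3.14 ± 0.13), rose too. The constitutive *Ptgs1* (-1.21 ± 0.14), *Hpgds*, the synthase of prostaglandin D2 (-1.76 ± 0.086), *Hpgd*, which degrades prostaglandins (-2.03 ± 0.094), and *Alox5ap* of the leukotriene branch (-0.92 ± 0.24) fell. Of the prostaglandin E2 receptor genes *Ptger4* rose (1.56 ± 0.071) and *Ptger3* (-2.64 ± 0.66) and *Ptger2* (-0.56 ± 0.18) fell.

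Acute-phase and antimicrobial genes rose in 17 of 24 cases. *Serpina3f*, a protease inhibitor, rose most (1810-fold, with a 95% counting interval of 983 to 3770). *Saa3*, a serum amyloid made by macrophages, had 51.2, 46.0 and 234 normalized counts in the PBS libraries and 42426, 37984 and 44446 in the LPS libraries (log2 fold change 8.57 ± 0.73, adjusted p = 5.51e-06, and log2 fold change 9.73 without PBS replicate 3) and *C3*, the central complement component, rose from 1166 to 63589 (log2 fold change 5.77 ± 0.22, adjusted p = 4.55e-10). *Lcn2*, which binds bacterial siderophores, had 2 counts in PBS (1050-fold, with a 95% counting interval of 291 to 8670). *Lyz2* was the most abundant member and was not called (-0.12 ± 0.093), and *Lyz1* fell (-1.24 ± 0.13). *C1qb* and *C1qc*, subunits of C1q, were not called (0.29 ± 0.25 and 0.072 ± 0.24) and were called higher without PBS replicate 3 (0.76 and 0.50), while library totals gave -0.28 and -0.50.

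Iron genes moved in both directions. *Hamp*, the hormone hepcidin, rose from 5 counts in PBS (429-fold, with a 95% counting interval of 184 to 1320), and *Slc40a1*, ferroportin, the exporter that hepcidin degrades, had 6824, 7076 and 3781 normalized counts in the PBS libraries and 169, 158 and 128 in the LPS libraries (log2 fold change -5.28 ± 0.23, adjusted p = 7.63e-10). *Slc39a14*, an importer of zinc and iron, rose by 3.88 ± 0.16 and *Cp*, ceruloplasmin, by 5.26 ± 0.15. *Steap4*, a metalloreductase, had no count in PBS (at least 622-fold higher), whereas *Steap3* fell (-2.85 ± 0.10). *Ftl1* fell (-1.43 ± 0.37, or -0.58 without PBS replicate 3) and *Fth1* was not called (-0.82 ± 0.40), with 1012800, 934750 and 3829300 normalized counts in the PBS libraries and 1097400, 1062100 and 1116000 in the LPS libraries, so that PBS replicate 3 stood far above every other library. It was called lower without PBS replicate 1 (-1.12, adjusted p = 0.0163) or PBS replicate 2 (-1.14, adjusted p = 0.0105). Of 26 genes of the NRF2 response to oxidants 12 were called lower and 6 higher, or 12 and 10 without PBS replicate 3, beside 30% higher and 35.5% lower among all genes tested. *Hmox1*, heme oxygenase, fell from 15493 to 5110.5 (log2 fold change -1.60 ± 0.098, adjusted p = 2.98e-09) and *Osgin1* fell by 3.23. *Slc7a11* (4.32 ± 0.16), the cystine importer, and *Sod2* (4.20 ± 0.26), the superoxide dismutase of mitochondria, rose. *Txn1*, thioredoxin, was not called (log2 fold change 1.01 ± 0.44, adjusted p = 0.0505). It was called higher without PBS replicate 3 (2.12 with an adjusted p of 2.82e-12), with DESeq2's test (1.01, adjusted p = 0.0327), with the replicate block (1.18, adjusted p = 0.0333) and with all gene types in 1 fit (1.11, adjusted p = 0.031).

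Lipid handling shifted by gene rather than as a block. *Olr1*, the receptor LOX-1, rose from 8.81 to 3356 (log2 fold change 8.40 ± 0.25, adjusted p = 7.32e-11), *Msr1*, scavenger receptor A, by 3.85 ± 0.058 and *Acsl1* by 3.94 ± 0.24. *Soat1*, which esterifies cholesterol, fell from 32222 to 6775 (log2 fold change -2.25 ± 0.072, adjusted p = 1.09e-10), and *Fabp4* (-1.83 ± 0.39, or -0.90 without PBS replicate 3) and *Scarb1* (-1.53 ± 0.11) fell. *Lpl*, the lipoprotein lipase, was called lower (-0.37 ± 0.17), but not without LPS replicate 2 (-0.37, adjusted p = 0.0625) or LPS replicate 3 (-0.34, adjusted p = 0.0806). *Cd36* was not called (0.10 ± 0.26), and was called lower without PBS replicate 3 (-0.23 with an adjusted p of 0.00178). Of the LXR targets *Abcg1* fell (-1.13 ± 0.14) and *Abca1* was not called (0.75 ± 0.48, adjusted p = 0.23). *Ch25h*, which makes 25-hydroxycholesterol, rose from 9.02 to 1481 (log2 fold change 7.57 ± 0.36, adjusted p = 1.36e-08, and 8.24 without PBS replicate 3). In sterol synthesis 9 of 23 genes fell, led by *Dhcr7* (-2.48 ± 0.19), and 6 rose, among them *Srebf2*, a factor that drives sterol genes (1.34 ± 0.20). These counts lie near the 35.5% lower and 30% higher among all genes tested. They were 12 lower and 6 higher without PBS replicate 3, and 17 and 4 on library totals. *Apoe*, with 688840, 631010 and 1657600 normalized counts in the PBS libraries and 781750, 805450 and 832130 in the LPS libraries, was not called (-0.30 ± 0.29) and stood highest in PBS replicate 3. Without that library it was called higher (0.28 with an adjusted p of 0.0147), and on library totals lower (-0.85, adjusted p = 0.00196).

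Of 24 genes of macrophage growth and lineage 12 rose and 11 fell, or 9 and 12 on library totals. *Cebpa*, a factor of myeloid differentiation, had 17910, 16722 and 22760 normalized counts in the PBS libraries and 658, 690.0 and 725 in the LPS libraries (log2 fold change -4.79 ± 0.12, adjusted p = 9.83e-13). *Pparg* (-3.68 ± 0.14), *Egr2* (-1.94 ± 0.12) and *Nr4a1* (-2.83 ± 0.32) fell with it, and *Csf1r*, the M-CSF receptor, fell slightly from 124550 to 87652 (log2 fold change -0.51 ± 0.12, adjusted p = 0.0019). *Cebpd* rose most (526 to 11694, log2 fold change 4.48 ± 0.27), and *Cebpb* (1.85 ± 0.36, or 2.57 without PBS replicate 3), *Irf8* (2.80 ± 0.065), *Klf4* (3.02 ± 0.28) and *Spi1* (1.18 ± 0.17) rose. Genes used as signs of alternative activation did not move as 1 group: *Pparg* fell, *Il10*, *Ccl22* and *Tgm2* (3.54 ± 0.081) rose, and *Arg1* and *Tgfb1* (-0.16 ± 0.12) were not called, *Tgfb1* being called lower without PBS replicate 2 (-0.25, adjusted p = 0.0407).

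Receptors for apoptotic cells and debris were changed one by one. *Tyro3* (4.14 ± 0.17), *Axl* (2.10 ± 0.23) and *Mertk* (1.95 ± 0.33), the 3 TAM kinases, rose, while their bridging ligand *Gas6* fell (-1.23 ± 0.11) and *Mfge8*, the most abundant of the list, fell slightly (170710 ± 29119 in PBS and 134730 ± 4149 in LPS, log2 fold change -0.34 ± 0.11). *Itgb3* (-2.62 ± 0.086) and *Gpr34*, a receptor for lysophosphatidylserine (-3.60 ± 0.45), fell. *Trem2*, which senses lipids, fell from 80295 to 43808 (log2 fold change -0.87 ± 0.29, adjusted p = 0.00978, and -0.28 without PBS replicate 3) with its adaptor *Tyrobp* (-0.60 ± 0.22). In the TREM2 list *Gpnmb*, among the highest counts of all libraries, was not called (1086300 ± 270240 in PBS and 1039200 ± 35044 in LPS, log2 fold change -0.064 ± 0.15) but was called lower without PBS replicate 3 (-0.27 with an adjusted p of 3.59e-05), and *Cst7* (7.25 ± 0.32) and *Spp1*, osteopontin (1.77 ± 0.079), rose. Among C-type lectins *Clec4e*, Mincle, which binds mycobacterial glycolipids, had 319, 348 and 316 normalized counts in the PBS libraries and 78802, 72913 and 70708 in the LPS libraries (log2 fold change 7.82 ± 0.14, adjusted p = 9.02e-13), and *Clec1a* fell from 559 to 11.6 (-5.62 ± 0.66). The Fcγ receptor genes *Fcgr1* (1.63 ± 0.15), *Fcgr2b* (2.60 ± 0.11) and *Fcgr4* (1.65 ± 0.18) rose and *Fcgr3* was not called (-0.0021 ± 0.081).

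Lysosomal genes made up 9.44, 9.27 and 10.4% of protein-coding counts in PBS and 4.73, 4.66 and 4.75% in LPS. Of 42 tested 23 fell and 2 rose, or 28 and 7 without PBS replicate 3, but the falls were small, with a median log2 fold change of -0.33 against -0.129 for all genes. *Ctsd*, cathepsin D, fell most, with 517800, 484210 and 1601300 normalized counts in the PBS libraries and 313240, 319040 and 327760 in the LPS libraries (log2 fold change -1.44 ± 0.35, adjusted p = 0.00164). Without PBS replicate 3 its change was -0.66. *Psap* (-0.64 ± 0.057), *Hexa* (-0.81 ± 0.25) and *Lipa*, the acid lipase (-0.88 ± 0.18), fell, and *Ctsb*, the highest, was called lower (-0.17 ± 0.036) but not without PBS replicate 1 (-0.15, adjusted p = 0.0601), LPS replicate 1 (-0.15, adjusted p = 0.0597) or LPS replicate 2 (-0.16, adjusted p = 0.0566). *Ctss* was not called (-0.22 ± 0.16), and was called lower without PBS replicate 1 (-0.34, adjusted p = 0.0374). *Ctsc*, which activates serine proteases, rose against the list, from 2599.6 to 34672 (log2 fold change 3.74 ± 0.16, adjusted p = 1.04e-09), and *Lamp2* rose by 0.67 ± 0.15, a direction that library totals turn (-0.004).

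Of 45 S-phase genes 29 fell and 9 rose, and of 45 mitosis genes 29 fell and 5 rose. *Ung*, the uracil glycosylase, fell from 80.8 to 2.31 (log2 fold change -5.12 ± 0.68, adjusted p = 3.61e-07) and *Rrm1*, a subunit of ribonucleotide reductase, by 1.81. *Cenpf* (-3.95 ± 0.51) and *Kif23*, needed for cytokinesis (-3.93 ± 0.30), fell, as did *Aurkb* (-2.62 ± 0.22) and *Cdk1* (-1.22 ± 0.27). *Mki67*, which encodes the proliferation antigen Ki-67, had 949, 1114 and 621 normalized counts in the PBS libraries and 10952, 13048 and 11932 in the LPS libraries (log2 fold change 3.74 ± 0.20, adjusted p = 5.15e-09). *Tpx2* (2.82 ± 0.12), *E2f8* (2.98 ± 0.41), *Ccne1*, cyclin E1 (3.07 ± 0.20), and *Pcna* (1.13 ± 0.11) rose, and *Cdt1* was not called (-0.018 ± 0.13). *Cdkn1a*, the inhibitor p21, had 5878, 5720 and 7082 normalized counts in the PBS libraries and 251320, 251060 and 265020 in the LPS libraries (log2 fold change 5.36 ± 0.089, adjusted p = 1.77e-13) and *Ccnd2*, cyclin D2, rose from 178 to 16771 (log2 fold change 6.54 ± 0.26, adjusted p = 1.32e-09). *E2f1* (-1.74 ± 0.23) and *Cdk4* (-1.38 ± 0.13) fell, and *Cdkn1b* was not called (-0.022 ± 0.11). Of 22 G1 cyclins, CDK inhibitors and related genes 11 rose and 7 fell, or 6 and 10 on library totals.

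Inflammasome genes were led, beside *Il1b* and *Il1a*, by *Nlrp3*, the sensor of danger signals, with 531, 560.4 and 317 normalized counts in the PBS libraries and 57341, 62564 and 63902 in the LPS libraries (log2 fold change 7.02 ± 0.17, adjusted p = 1.68e-11). *Casp1* (1.90 ± 0.15), *Gsdmd*, the pore of pyroptosis (1.72 ± 0.14), *Aim2* (2.67 ± 0.062) and *Mlkl* of necroptosis (4.95 ± 0.076) rose. *Nlrp1b* (-3.46 ± 0.34) and *Nlrc4* (-1.52 ± 0.21), sensors of other bacterial products, fell. Of the BCL2 family and death receptor genes 19 of 26 rose and 3 fell, or 14 and 8 on library totals. *Cflar*, which blocks caspase-8, rose from 3155 to 104950 (log2 fold change 5.05 ± 0.21, adjusted p = 9.20e-10) and *Birc3* by 3.06 ± 0.12. *Bcl2a1a*, *Bcl2a1b* and *Bcl2a1d* rose by 5.75 ± 0.46, 3.49 ± 0.51 and 5.73 ± 0.44, or 6.90, 4.89 and 6.82 without PBS replicate 3, but they are near-identical copies and their split is uncertain. *Bcl2l11*, the pro-apoptotic BIM, also rose (1.45 ± 0.10), while *Bmf* fell and *Bax* was not called (-0.67 ± 0.37), though it was called lower without PBS replicate 1 (-0.94, adjusted p = 0.0278) or PBS replicate 2 (-0.97, adjusted p = 0.0169).

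Genes for adhesion and for cutting matrix rose in part. *Icam1*, the ligand of LFA-1, rose from 1935 to 364270 (log2 fold change 7.56 ± 0.27, adjusted p = 5.72e-10) and *Vcam1* by 4.76 ± 0.11, *Cd44* by 3.40 ± 0.13 and *Itgb8*, an activator of TGFβ, by 6.51 ± 0.34. *Itgam* was not called (7897 ± 628 in PBS and 7900.5 ± 407 in LPS, or log2 fold change -0.63 on library totals). *Mmp13*, a collagenase, had 602, 660.0 and 822 normalized counts in the PBS libraries and 117990, 117660 and 113640 in the LPS libraries (log2 fold change 7.40 ± 0.12, adjusted p = 2.64e-13), *Mmp14* rose by 3.92 ± 0.13 and the inhibitor *Timp1* by 2.12 ± 0.37, or 2.94 without PBS replicate 3, while *Timp2* fell (-1.04 ± 0.068). *Mmp12*, the macrophage elastase, was the highest of the list and rose from 123750 to 203270 (0.72 ± 0.064), a call lost on library totals (0.073, adjusted p = 0.581). The clotting genes *F10* (3.63 ± 0.18) and *F3*, tissue factor (4.96 ± 0.16), rose, and *Thbd*, the anticoagulant thrombomodulin, fell from 604 to 60.5 (log2 fold change -3.32 ± 0.40, adjusted p = 1.23e-05).

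Receptors for purines and metabolites changed sharply in both directions. *Adora2a*, the adenosine receptor that raises cAMP, had 28.9, 30.7 and 37.3 normalized counts in the PBS libraries and 9494, 10195 and 10308 in the LPS libraries (log2 fold change 8.31 ± 0.16, adjusted p = 3.72e-13), *Hcar2*, the niacin receptor, rose from 18.3 to 6411 (8.46 ± 0.19) and *Gpr84*, a receptor for medium-chain fatty acids, from 18.6 to 1730.4 (6.53 ± 0.21). The phosphodiesterase gene *Pde4b* rose by 5.33 ± 0.19. *Adora3* (-2.62 ± 0.43), *Entpd1*, which removes extracellular ATP (-1.06 ± 0.15), and *P2rx7*, the ATP receptor upstream of NLRP3 (-0.93 ± 0.23), fell. Of the NADPH oxidase genes 6 of 9 were called higher and 1 lower, against 3 and 5 on library totals, with *Cybb* rising from 58561 to 219220 (log2 fold change 1.90 ± 0.20, adjusted p = 3.19e-06) and *Ncf1* rising by 1.07 ± 0.11, while *Cyba* was not called (-0.49 ± 0.43, or 0.59 with an adjusted p of 6.73e-05 without PBS replicate 3).

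Of 30 genes of the unfolded protein and integrated stress responses 12 rose and 9 fell, beside 30% and 35.5% of all genes tested, or 12 and 16 on library totals. *Atf4*, a factor of the integrated stress response, had 10158 ± 4963 in PBS and 47280 ± 799 in LPS (log2 fold change 2.22 ± 0.26, adjusted p = 2.34e-06), and *Chac1* (6.61 ± 0.21), *Asns* (3.73 ± 0.16), *Phgdh* (3.71 ± 0.27) and *Trib3* (3.64 ± 0.18), all known targets of ATF4, rose. *Sdf2l1* (-1.26 ± 0.24), *Pdia4* (-1.12 ± 0.13) and *Hsp90b1* (-0.80 ± 0.15), which encode proteins of the endoplasmic reticulum, fell, and *Hspa5*, its chaperone BiP and the highest of the list, rose (38034 ± 8193 in PBS and 66652 ± 1228 in LPS, log2 fold change 0.81 ± 0.13). *Xbp1* was not called (0.17 ± 0.10, or -0.49 on library totals).

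The direct contrasts with the other stimulations show where the LPS state stood apart. By the study's methods the LPS/IFNγ cells differed from the LPS cells in added IFNγ and also in a lower LPS dose. A label field gives the same LPS dose for both groups. How far LPS dose or IFNγ accounts for the differences from LPS/IFNγ was not tested. Of all tested genes 12% were called higher and 13.8% lower in LPS than in dsHMGB1, and among the 886 list members the calls were 252 and 113. Against LPS/IFNγ 9.81% were called higher and 14.3% lower, and 181 and 152 of the list members. Without PBS replicate 3, which enters these contrasts through the shared estimate of the spread, the list calls were 386 and 217 against dsHMGB1 and 338 and 271 against LPS/IFNγ. *Il1b* was highest in LPS, at 433510 ± 11178 normalized counts against 50535 ± 7680.5 in dsHMGB1 (log2 difference 3.10 ± 0.13, adjusted p = 4.04e-08). LPS/IFNγ reached 61475 ± 926 (log2 difference 2.82 ± 0.13, adjusted p = 4.68e-08). *Il23a* was also highest in LPS, 3822 ± 291 in LPS, 226 ± 62.5 in dsHMGB1 and 52.1 ± 1.84 in LPS/IFNγ, with log2 differences of 4.08 ± 0.21, adjusted p = 7.65e-07 from dsHMGB1 and 6.20 ± 0.23, adjusted p = 4.97e-08 from LPS/IFNγ. *Il6* exceeded dsHMGB1 (3.40 ± 0.21, adjusted p = 1.08e-05) and also exceeded LPS/IFNγ (1.07 ± 0.21, adjusted p = 0.0238). *Il12b* was higher in LPS than in dsHMGB1 (1.08 ± 0.089, adjusted p = 0.0228) and lower than in LPS/IFNγ (-1.58 ± 0.089, adjusted p = 0.00198), and so was *Nos2* (2.59 ± 0.071, adjusted p = 8.99e-05 and -1.39 ± 0.071, adjusted p = 0.00567). Of the guanylate-binding proteins and immunity-related GTPases, targets of IFNγ, 11 of 17 were lower in LPS than in LPS/IFNγ and 0 higher, whereas of the type I interferon-stimulated genes 16 of 38 were higher in LPS and 1 lower. *Cxcl9*, a chemokine known as an IFNγ target, stood at 31900 ± 1764 in LPS and 476510 ± 10926 in LPS/IFNγ (-3.90 ± 0.084, adjusted p = 3.74e-06), and *Ciita* at 4448 ± 227 and 18490 ± 309 (-2.06 ± 0.24, adjusted p = 3.70e-05). Against dsHMGB1 the sterol genes were lower in LPS in 11 of 23 cases and higher in 0, and the NRF2 genes in 13 and 0 of 26. *Hmox1* stood at 5110.5 ± 179 in LPS and 15844 ± 1080.3 in dsHMGB1 (-1.63 ± 0.098, adjusted p = 5.66e-08). *Cnr2* was lower in LPS than in dsHMGB1 (-2.37 ± 0.36, adjusted p = 1.26e-04) and LPS/IFNγ (-3.88 ± 0.36, adjusted p = 1.35e-06).

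Macrophage markers were present in every library. All 12 macrophage markers fixed for the check passed the filter and together took 3.77, 3.70 and 3.61% of protein-coding counts in PBS and 2.40, 2.33 and 2.40% in LPS. Of the markers of neutrophils 2 of 12 passed the filter, of lymphocytes 2 of 12 and of erythroid cells 1 of 10, and *Ly6g*, *Mpo* and *Cd3e* were not among them. Fibroblast markers took 0.0366, 0.0392 and 0.0166% in PBS and 0.0301, 0.0316 and 0.0308% in LPS, where 6 of 9 tested were called higher, *Col1a1* with 4768 ± 1533 in PBS and 7226 ± 159 in LPS (log2 fold change 0.60 ± 0.20, but -0.084 on library totals, and not called without LPS replicate 2, 0.59, adjusted p = 0.0554, or LPS replicate 3, 0.60, adjusted p = 0.0526) and *Pdgfrb* with 229 ± 44.1 in PBS and 1604 ± 23.2 in LPS (log2 fold change 2.79 ± 0.12). The part of such cells in the results was not tested. Osteoclast markers took 0.181, 0.191 and 0.145% and 0.0763, 0.0741 and 0.073%, with *Acp5* higher (2.88 ± 0.15) and *Atp6v0d2* lower (-1.27 ± 0.062). Of 10 dendritic cell markers 6 were tested, 4 of them higher and 1 lower. Of 10 mast cell and basophil markers 5 were tested, and *Hdc* was called higher and *Gata2* (-2.15 ± 0.27) and *Cpa3* lower, the latter from 5.71 ± 2.62 normalized counts and with an adjusted p of 0.0488. The *Cpa3* call was lost without PBS replicate 1 (adjusted p = 0.0651), PBS replicate 3 (0.104), LPS replicate 2 (0.141) or LPS replicate 3 (0.141), with DESeq2's test (0.0512) and with the replicate block (0.0706). Of the 13 genes encoded in mitochondria 6 were called lower, *mt-Atp6*, *mt-Atp8*, *mt-Nd3*, *mt-Nd4l*, *mt-Co2* and *mt-Co3*, by between 3.14 and 4.44 on the log2 scale, and the other 7, from -0.48 ± 0.30 for *mt-Nd6* to 0.73 ± 0.39 for *mt-Nd5*, were not called. Among the same 13 genes 6 were called lower and 0 higher in LPS than in dsHMGB1, and likewise 6 and 0 against LPS/IFNγ. Nuclear copies of these genes exist, so their counts are uncertain. The part of RNA quality, or of a technical difference of the LPS libraries, in the results was not tested.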

How the data were processed

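RNA of 15 BMDM cultures was sequenced after poly(A) selection with a stranded kit, paired-end. Per the study's methods and processing notes, the authors aligned reads to GRCm38 with STAR; the counting program is not given in the sources used here. The deposited values are raw counts per Ensembl gene. Gene types and coordinates came from GENCODE M21, which held 51661 of 51763 identifiers. Processed pseudogenes and other types were left out of the main set.

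Protein-coding genes passing filterByExpr (minimum count 10) were tested with edgeR 4.0.16 (quasi-likelihood, TMM, all 15 libraries in 1 fit). Normalized counts and log2 fold changes with standard errors came from DESeq2 1.42.0 (R 4.3.3), without shrinkage. Values ± are SD over 3 libraries, or the standard error after a fold change. Counting intervals (95%) cover counting error only. The fits were also run on simulated counts, where 51 of 97 genes with a log2 change of 1 were called and 90 of 100 with a change of 2. The simulation had no outlying library and no broad shift in composition, so it cannot show how the fits handle either. Genes named were the 12 largest changes in each direction and, per list, the largest changes, the highest and the highest not called; other list members were added after their values were seen, to fill out roles. Some list members are not reported here. Members and lists were chosen with earlier results of these data known. Promoters came from RefSeq tables (GRCm38.p6). Alternatives covered normalization, tool, filters, gene set, samples fitted, effect size, replicate block and each library left out.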

Additional observations from a re-analysis of the deposited data

How the results depend on the processing

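For LPS against PBS, other size factors, filters, gene sets, DESeq2's test and a fit of the compared groups alone kept the counts of called genes within 1.5 times. In edgeR's test that last fit lost the calls of 16 named genes. They were *Irf3* (adjusted p = 0.202), *Ctsb* (0.171), *Lpl* (0.153), *Col1a1* (0.15), *Irak1* (0.136), *Sdhb* (0.11), *Ndufb10* (0.101), *Tyrobp* (0.0912), *Trem2* (0.0891), *Pkm* (0.0725), *Hexa* (0.0701), *Fh1* (0.0679), *Mfge8* (0.0641), *Lamp2* (0.0543), *Csf1r* (0.0524) and *Ftl1* (0.0504). A test against a 2-fold change gave 1926 genes higher and 1880 lower, and a log2 cut-off of 1 in place of 2 was passed by 2690 and 3213. Division by library totals, added after the data were seen, gave 2275 genes higher, 7280 lower and 2212 below -2. Counting only genes called with either scaling, it turned 11 of 308 named genes: *Atf3* (-0.14), *C1qc* (-0.50), *Col1a1* (-0.084), *Ifngr2* (-0.51), *Itgam* (-0.63), *Lamp2* (-0.0040), *Ldha* (-0.48), *Sdha* (-0.62), *Ticam1* (-0.021), *Unc93b1* (-0.36) and *Xbp1* (-0.49). Without PBS replicate 3, 4 more turned; over all omissions *Apoe* ranged from -0.54 to 0.28, *Cd36* from -0.23 to 0.35, *Cox4i1* from -0.86 to 0.48 and *Cyba* from -0.84 to 0.59.

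Leaving out 1 library at a time, the calls ranged from 3610 to 4829 higher and from 4141 to 5211 lower, and the genes beyond the cut-off of 2 from 1409 to 1520 and from 1118 to 1281. List members called against dsHMGB1 ranged from 207 to 386 higher and from 93 to 217 lower, and against LPS/IFNγ from 140 to 338 and from 115 to 271; each maximum came without PBS replicate 3. The 2-fold test called 55 and 12 against dsHMGB1 and 45 and 42 against LPS/IFNγ. Fits of the compared groups alone called 185 lower against dsHMGB1, and 393 higher and 283 lower against LPS/IFNγ. Library totals called 212 lower against dsHMGB1. The cause of these shifts was not tested.

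The replicate numbers showed no sign of pairing the libraries. Deviations of same-numbered PBS and LPS libraries from their group means correlated at -0.0684, 0.0772 and -0.00295, and those of differently numbered ones at -0.0883 to 0.0868. PBS replicate 3 stood apart and enters every PBS deviation, so this check cannot settle whether the libraries are paired. With the number as a block, 3901 genes were called higher and 4452 lower. Of 4612 values of named genes under alternatives, 4458 kept their side of the threshold, 100 lost the call and 39 gained it. The other 15 changed direction with a call in either setting. A change of direction between values not called in either setting counts among the 4458.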

Other observations

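Outside the protein-coding set, processed pseudogenes were called lower far more often than higher in LPS, 1089 against 173 of 2028 tested, with a median log2 fold change of -1.56. Their share of the counts was 0.89, 0.877 and 1.66% in the PBS libraries and between 0.53 and 0.537% in the LPS libraries, so that PBS replicate 3 was the highest of all 6. It was 0.608 to 0.633% with the fully reduced form of HMGB1, 0.765 to 0.901% with dsHMGB1 and 0.732 to 0.759% with LPS/IFNγ. The LPS libraries were thus the lowest of the series. Whether a technical difference between libraries accounts for these calls was not tested. Of 385 lincRNA genes 59 were called higher and 158 lower, and of 476 antisense genes 105 and 135.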
